A study of Mus musculus with 2 samples.

Results

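The genes described here make, break down or bind hyaluronan, a long unsulfated sugar polymer of the pericellular matrix, in cultured mouse small intestinal myofibroblasts. Myofibroblasts are contractile, matrix-producing stromal cells that lie beneath the gut epithelium. The 9 genes were taken by name: the hyaluronan synthases Has1, Has2 and Has3, the hyaluronidases Hyal1, Hyal2 and Hyal3, the hyaluronan-binding proteins Tnfaip6 and Vcan, and the hyaluronan receptor Cd44. A probeset paired with that gene alone was found for 8 of the 9, among 22180 genes named on the array, and 5 of these 8 were above the background level. The exception, Hyal1, was covered only by probesets shared with another gene.

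RNA was measured on a whole-transcript microarray, the GeneChip Mouse Gene 2.0 ST, which reads each gene with probes along its exons. The stimulated array holds RNA of myofibroblasts of wild-type BALB/c mice exposed over 1 day to homogenised intestinal eosinophils (5 mg/ml). The non-stimulated array holds RNA of the same kind of cells kept for the same time without that material. Each array carries the pooled RNA of 3 cultures, so there is 1 array per condition, no replicate error and no test between conditions; each difference below describes these pools, and the number of arrays limits the precision.

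Hyaluronan is built at the plasma membrane by synthases that join UDP-glucuronic acid and UDP-N-acetylglucosamine and push the growing chain out of the cell. Outside the cell it is bound by versican and by the protein TSG-6, which links heavy chains of inter-alpha-inhibitor to it, and it is sensed through the receptor CD44. Hyaluronidases cut it into fragments, and the composition of this coat is known to change in inflamed intestine.

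All values are the deposited log2 values, and a difference is the stimulated minus the non-stimulated value, also in log2. The values ran between 1.11 and 13.79 on the stimulated array and between 1.08 and 13.79 on the non-stimulated array. Percentile 95 of 1407 probesets for odorant and pheromone receptors, genes not used by fibroblasts, served as the background level, which was 5.57 on the stimulated and 5.58 on the non-stimulated array. A gene was compared when it passed that level on at least 1 array, as 14068 genes did. The 10 fibroblast markers and the 5 contractile markers were all above background on both arrays, with median differences of 0.00 and -0.53, although a label field names eosinophils as the source of both samples. Of the fibroblast markers 6 were higher and 4 lower, and 1, Pdgfra, named after its values were seen, was higher by 0.56. All 5 contractile markers were lower, 3 of them by at least 0.5, against 1.15% of all compared genes. Of the markers of other cell types, 2 of 8 eosinophil, 4 of 8 macrophage, 0 of 6 mast cell, 1 of 5 lymphocyte, 4 of 6 general leukocyte, 3 of 6 endothelial, 4 of 8 epithelial and 2 of 4 mesothelial genes were above background on at least 1 array. By the same rule 14068 of all 22180 genes were above background. Lyz2, Cd4 and Itgb2 passed on the stimulated array only and Cebpe on the non-stimulated array only. These 4 were named after their values were seen. The leukocyte gene Cd53 was among the markers above background, at 9.56 on the stimulated and 9.73 on the non-stimulated array.

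Vcan, which encodes versican, a large chondroitin sulfate proteoglycan that binds hyaluronan through its N-terminal region, had the largest difference of the 5 genes above background. Cd44 was higher on the stimulated array by less, Has2 and Hyal2 differed by little, and Hyal3 was lower. Hence 2 of the 5 were higher and 3 lower, while 50.2% of all compared genes were higher and 48.2% lower. The median difference of the 5 was -0.04, against 0.0016 over all 14068 genes. None of the 5 was at least 2-fold higher, where 0.192% of all compared genes were, and none was at least 2-fold lower, where 0.0426% were. At a difference of at least 0.5, 1 of the 5 was higher (Vcan) and 0 were lower, against 1.2% and 1.15% of all compared genes.

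**Figure D1:**
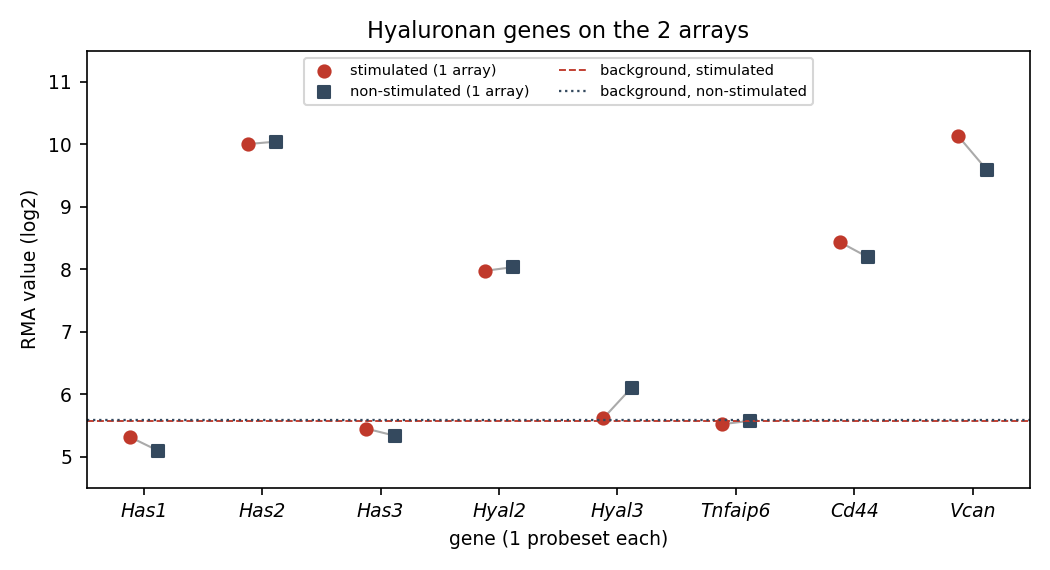
Log2 RMA value of the 8 hyaluronan genes that have a probeset of their own, on the stimulated array (circles) and the non-stimulated array (squares), 1 array each, with the background level of each array as a dashed and a dotted line. Vcan stands at 10.13 and 9.59, Hyal3 at 5.61 and 6.11, and Has1, Has3 and Tnfaip6 lie under both lines; heights of different genes are not comparable, since each comes from its own probes.

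The promoters of Vcan, Cd44 and Hyal3 are shown because these genes had the largest differences of the 5. They are the 250 bases before the annotated start of each gene, from RefSeq on build GRCm38.p6, given on the strand of the gene. They lie at chr13:89742513-89742762 on the minus strand for Vcan, at chr2:102901666-102901915 on the minus strand for Cd44, and at chr9:107581046-107581295 on the plus strand for Hyal3. Capitals mark matches to the GC box GGGCGG on either strand.
Vcan: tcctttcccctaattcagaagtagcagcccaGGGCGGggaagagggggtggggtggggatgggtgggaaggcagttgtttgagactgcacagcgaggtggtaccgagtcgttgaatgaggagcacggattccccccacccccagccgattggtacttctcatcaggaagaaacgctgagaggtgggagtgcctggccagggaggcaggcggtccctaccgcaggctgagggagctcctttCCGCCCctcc
Cd44: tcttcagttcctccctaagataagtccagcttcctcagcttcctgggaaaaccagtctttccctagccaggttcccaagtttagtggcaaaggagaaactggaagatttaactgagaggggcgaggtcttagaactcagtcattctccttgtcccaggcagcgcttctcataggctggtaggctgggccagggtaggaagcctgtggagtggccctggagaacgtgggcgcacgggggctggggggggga
Hyal3: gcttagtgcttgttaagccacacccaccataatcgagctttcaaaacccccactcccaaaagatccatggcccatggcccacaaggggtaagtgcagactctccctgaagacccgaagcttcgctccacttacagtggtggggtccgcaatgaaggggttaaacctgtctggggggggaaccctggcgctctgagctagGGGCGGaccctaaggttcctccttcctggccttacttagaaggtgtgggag

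The GC box, the sequence recognised by Sp1-type factors, occurred 2 times in the Vcan window, 0 times in the Cd44 window and 1 time in the Hyal3 window, and 32.7% of 32841 promoter windows of the same length held it. Both strands were also searched for the AP-1 motif TGANTCA, the STAT motif TTCNNNGAA, the box TATAAA and the NF-kB consensus. None of these 4 was in any of the 3 windows. Of all windows, 6.75% held the AP-1 motif, 7.02% the STAT motif, 12.4% the TATAAA box and 3.9% the NF-kB consensus. The GC box matches were the only ones in these windows, and they do not overlap. A missing match says only that these letters are not in these bases.

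Of the synthases, Has2 was the one whose own probeset lay above background. It read 10.01 on the stimulated and 10.05 on the non-stimulated array, a difference of -0.04. Has2 is the synthase that is essential for the embryonic heart in mice and the main one of many fibroblasts. Its value stood 4.44 above the background level on the stimulated array and 4.47 above it on the non-stimulated array. A further probeset, shared by Has2 and its antisense transcript Has2os, read 6.36 on the stimulated and 6.41 on the non-stimulated array and differed by -0.05. Both probesets thus differed little between the arrays.

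Has1 and Has3, the other synthases, were under background on both arrays. Has1 read 5.32 on the stimulated and 5.10 on the non-stimulated array. Has3 read 5.45 on the stimulated and 5.33 on the non-stimulated array. No difference is read from values under background, and a low RMA value does not show that a transcript is absent.

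The hyaluronidase genes lie next to each other in the genome, and the annotated spans of Hyal1 and Hyal3 overlap. Hyal2 encodes a membrane-anchored enzyme that cuts long hyaluronan at the cell surface. It read 7.98 on the stimulated and 8.03 on the non-stimulated array, a difference of -0.06. Of the 3517 genes in the same of 4 equal sets by mean expression, the central 95% had differences between -0.29 and 0.32, so Hyal2 was well inside that range.

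Hyal3, a hyaluronidase family member whose own enzyme activity is less well established, read 5.61 on the stimulated and 6.11 on the non-stimulated array. It was 1.41-fold lower on the stimulated array, a difference of -0.49, with rank 170 from the lowest of all compared genes. Its stimulated value was 0.05 above the background level and its non-stimulated value 0.53 above it. In the dimmest of the 4 sets, to which Hyal3 belongs, the central 95% of differences lay between -0.51 and 0.48, and 2.7% of the genes were lower by at least 0.5. Hyal3 was inside that range.

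Hyal1, which encodes the main lysosomal hyaluronidase, was read only by probesets shared with Naa80, an overlapping gene for an actin-modifying acetyltransferase. The first of the 2 shared probesets read 8.32 on the stimulated and 8.41 on the non-stimulated array, a difference of -0.09. The other read 8.05 on the stimulated and 8.01 on the non-stimulated array, a difference of 0.04. Their differences had opposite signs and were small, and the part of each gene in them cannot be told apart. Naa80 also overlaps the annotated span of Hyal3, whose probeset differed by -0.49. A probeset shared by Hyal2 and Gm9917 was under background on both arrays, at 5.37 on the stimulated and 5.12 on the non-stimulated array.

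Tnfaip6 encodes TSG-6, a secreted hyaluronan-binding protein known to be induced by inflammatory cytokines in many cell types. It read 5.52 on the stimulated and 5.57 on the non-stimulated array. Minus the background level of its array, its value was -0.05 on the stimulated and -0.0063 on the non-stimulated array. Tnfaip6 was therefore just under background on both, and no difference was read from it.

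Cd44 encodes the principal cell-surface receptor for hyaluronan, which is present on stromal cells and on leukocytes. It read 8.43 on the stimulated and 8.19 on the non-stimulated array, 1.18-fold higher on the stimulated array, a difference of 0.24. It had rank 985 from the highest of all compared genes. The difference lay inside the central 95% of its set by mean expression, between -0.29 and 0.32. Cd44 is spliced into many forms, and 1 value for the whole transcript does not separate them.

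Leukocyte and macrophage markers are given beside Cd44 because those cells also carry it. The 4 macrophage markers above background were all higher on the stimulated array, with a median difference of 0.22. Lyz2, 1 of the 4, passed background on the stimulated array only, so its direction was set by the filter. It read 5.66 on the stimulated and 5.15 on the non-stimulated array, a bound of at least 1.06-fold higher, and it counts in that median. The linear values of all 8 macrophage markers summed to 8.80 on the stimulated and 8.64 on the non-stimulated array on the log2 scale. The summed value of the 6 general leukocyte markers was 9.93 on the stimulated and 10.06 on the non-stimulated array. Cd53, with a difference of -0.17, was the largest part of that sum. Of the 4 leukocyte markers above background, 1 was higher and 3 lower, against 50.2% and 48.2% of all compared genes. The higher one, Itgb2, passed background on the stimulated array only, so its direction was also set by the filter. It read 5.66 on the stimulated and 5.40 on the non-stimulated array. Both sums include genes under background and add up probesets whose heights are not comparable. Of the general leukocyte markers, Cd53, Cd37, Itgb2 and Laptm5 were above background on at least 1 array, and of the macrophage markers Cd68, Cx3cr1, Fcgr1 and Lyz2 were. The other 2 leukocyte and 4 macrophage markers were under background on both arrays, among them Ptprc (CD45) and Adgre1; single markers here were named after their values were seen. Ptprc read 3.95 on the stimulated and 4.16 on the non-stimulated array, and Adgre1 read 4.57 on the stimulated and 4.51 on the non-stimulated array. The part of such cells in the Cd44 difference was not tested. In bulk RNA, fewer cells of a type and less RNA per cell cannot be told apart.

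Vcan read 10.13 on the stimulated and 9.59 on the non-stimulated array. It was 1.45-fold higher on the stimulated array, a difference of 0.54, with rank 141 from the highest of all compared genes. Vcan belongs to the brightest of the 4 sets by mean expression, where the central 95% of differences lay between -0.25 and 0.29 and 0.768% of the genes were higher by at least 0.5. Vcan was the one of the 5 outside the range of its set. Versican also has splice forms that differ in how much chondroitin sulfate they carry, and these are not separated here.

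**Figure D2:**
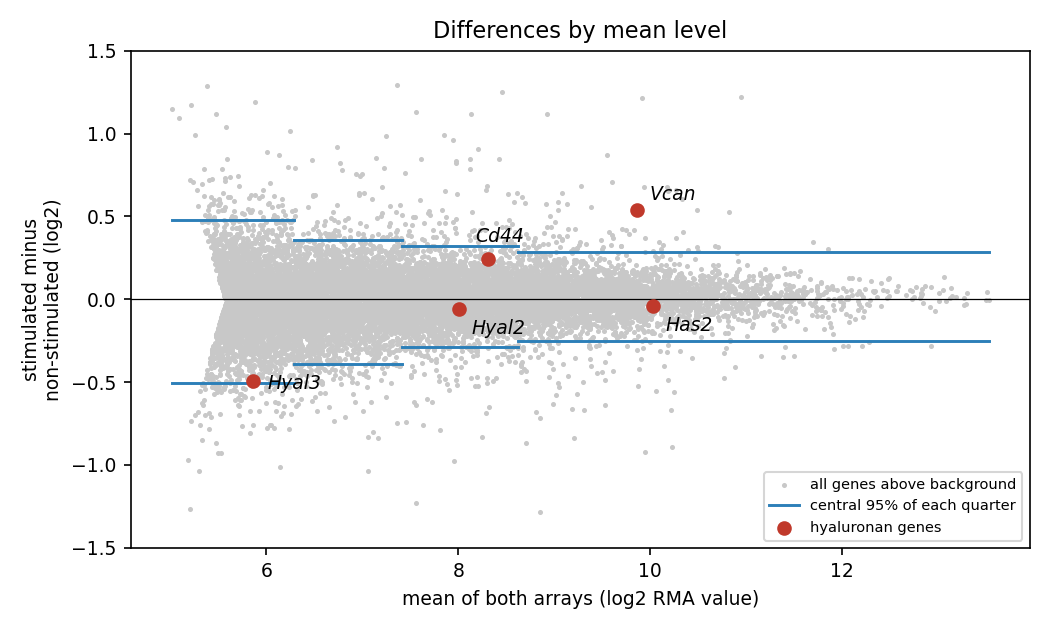
Difference in log2, stimulated minus non-stimulated, against the mean of both arrays for all 14068 genes above background (grey, of which 12 lie beyond the plotted range of 1.5) and the 5 hyaluronan genes (red). Blue lines bound the central 95% of differences in each of 4 equal sets of genes by mean; Vcan at 0.54 lies above the line of its set and Hyal3 at -0.49, Hyal2, Cd44 and Has2 lie inside theirs.

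The genes whose pair of values was closest to that of Vcan, by Euclidean distance over the 2 arrays, were Snx18, Tmem176b and Sulf1. Snx18, a sorting nexin of membrane traffic, read 10.04 on the stimulated and 9.62 on the non-stimulated array, at a distance of 0.0943. Tmem176b, a membrane protein gene, read 10.28 on the stimulated and 9.60 on the non-stimulated array, at a distance of 0.15. Sulf1, an extracellular sulfatase that trims heparan sulfate, read 9.97 on the stimulated and 9.58 on the non-stimulated array, at a distance of 0.157. With 2 arrays such closeness says only that both values were alike.

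Genes around the same pathway were listed by role, and 55 of 71 with a probeset were above background, as were 14068 of all 22180 genes. On the stimulated array 32 of these 55 were higher and 23 lower, against 50.2% higher and 48.2% lower over all compared genes. The median difference of the 55 was 0.04, against 0.0016 over all compared genes. Stab1, Hapln3 and Itih4 passed background only on the array where they were higher, so their direction in this count was set by the filter. The share of higher genes was near that of all genes, and the lists that follow are to be read against the same shares. At least 0.5 higher were 3 of the 55 and at least 0.5 lower was 1, against the 1.2% and 1.15% of all compared genes. The lists were chosen with earlier results of these data known, so this comparison describes the lists only.

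The enzymes that prepare the sugar precursors of the synthases were all above background, 11 of 11, with 7 higher and 4 lower and a median of 0.07. Gfpt2, an isoform of the enzyme that opens the hexosamine pathway to UDP-N-acetylglucosamine, led them at 8.72 on the stimulated and 8.37 on the non-stimulated array, a difference of 0.35. The hexokinase gene Hk2 followed at 8.04 on the stimulated and 7.84 on the non-stimulated array. No precursor gene reached 0.5 in either direction, and the synthase gene Has2 stood at -0.04 beside them.

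Among other genes of hyaluronan breakdown, 4 of 8 were above background and all 4 were higher, with a median of 0.12. Cemip, which encodes a protein needed for hyaluronan depolymerisation by skin fibroblasts, read 7.18 on the stimulated and 6.36 on the non-stimulated array, 1.77-fold higher on the stimulated array. Its difference of 0.82 was larger than those of Hyal2 (-0.06) and Hyal3 (-0.49), which had the opposite sign. Its relative Cemip2, a cell-surface protein with hyaluronidase activity described in mouse, read 8.42 on the stimulated and 8.22 on the non-stimulated array. The 4 under background on both arrays were the testis-type hyaluronidases Spam1, Hyal5 and Hyal6 and their neighbour Hyal4, named after their values were seen.

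The other hyaluronan receptors were above background in 6 of 7 cases. All 6 were higher on the stimulated array by between 0.04 and 0.23, with a median of 0.16 beside the 0.24 of Cd44. Stab1, with the 0.23, passed background on the stimulated array only, so its direction was set by the filter and it counts in that median. Of the receptors above background on both arrays, Hmmr had the largest difference, 0.22. Over all genes, 14068 of 22180 were above background and 50.2% of those were higher. Hmmr, which also serves the mitotic spindle, read 6.14 on the stimulated and 5.92 on the non-stimulated array. Stab1, an endocytic scavenger receptor, read 5.74 on the stimulated and 5.52, under background, on the non-stimulated array, which gives a bound of at least 1.12-fold higher. None of the 6 reached 0.5.

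Of 16 other hyaluronan-binding proteins, 8 were above background, 4 higher and 4 lower, with a median of 0.01. Of the 4 lower, Hapln3 and Itih4 passed background on the non-stimulated array only, so their direction was set by the filter. Itih4, named after its values were seen, read 5.38 on the stimulated and 5.58 on the non-stimulated array, a bound of at least 1.01-fold lower. Ptx3, a pentraxin that works with TSG-6 in holding the hyaluronan matrix of the ovarian cumulus together in mouse, read 6.70 on the stimulated and 5.91 on the non-stimulated array, 1.73-fold higher on the stimulated array, a difference of 0.79. Its partner gene Tnfaip6 was under background on both arrays. Hapln3, a link protein gene, read 5.49, under background, on the stimulated and 5.73 on the non-stimulated array, at least 1.12-fold lower on the stimulated array. It belongs to the dimmest of the 4 sets by mean expression and lay inside the central 95% of its differences, between -0.51 and 0.48.

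The proteases that cleave versican differed in both directions. Above background were 5 of 6, of which 2 measured higher and 3 lower; the median was -0.07. Adamts5 read 8.78 on the stimulated and 9.29 on the non-stimulated array, 1.42-fold lower on the stimulated array, a difference of -0.51. Adamts4 read 7.50 on the stimulated and 7.06 on the non-stimulated array, 1.36-fold higher on the stimulated array. Both enzymes cut versican and the related proteoglycan aggrecan. Adamts1, named after its values were seen, read 8.57 on the stimulated and 8.92 on the non-stimulated array, a difference of -0.35. Beside the 0.54 of Vcan, Adamts4 was thus also higher, and Adamts5 and Adamts1 were lower on the stimulated array.

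All 13 measured genes for the synthesis of chondroitin sulfate, the sugar chain that versican carries, were above background; 4 measured higher and 9 lower, with a median difference of -0.07. Csgalnact1, which starts the chain, read 7.52 on the stimulated and 7.06 on the non-stimulated array, a difference of 0.46. B3galt6, which builds the linker to the core protein, read 6.35 on the stimulated and 6.61 on the non-stimulated array, a difference of -0.26. None of the 13 reached 0.5.

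Of the partners, sheddases and splice regulators of CD44, 8 of 10 were above background, 5 higher and 3 lower, with a median of 0.03. Mmp9, a gelatinase that docks on CD44, read 10.37 on the stimulated and 8.27 on the non-stimulated array, a difference of 2.10 and the one difference of at least 2-fold among these pathway genes. Adam17, a sheddase, read 8.66 on the stimulated and 8.31 on the non-stimulated array, a difference of 0.35. Both splice regulators, Esrp1 and Esrp2, which favour the variant exons of Cd44 in epithelial cells, were under background on both arrays. They were named after their values were seen.

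**Figure D3:**
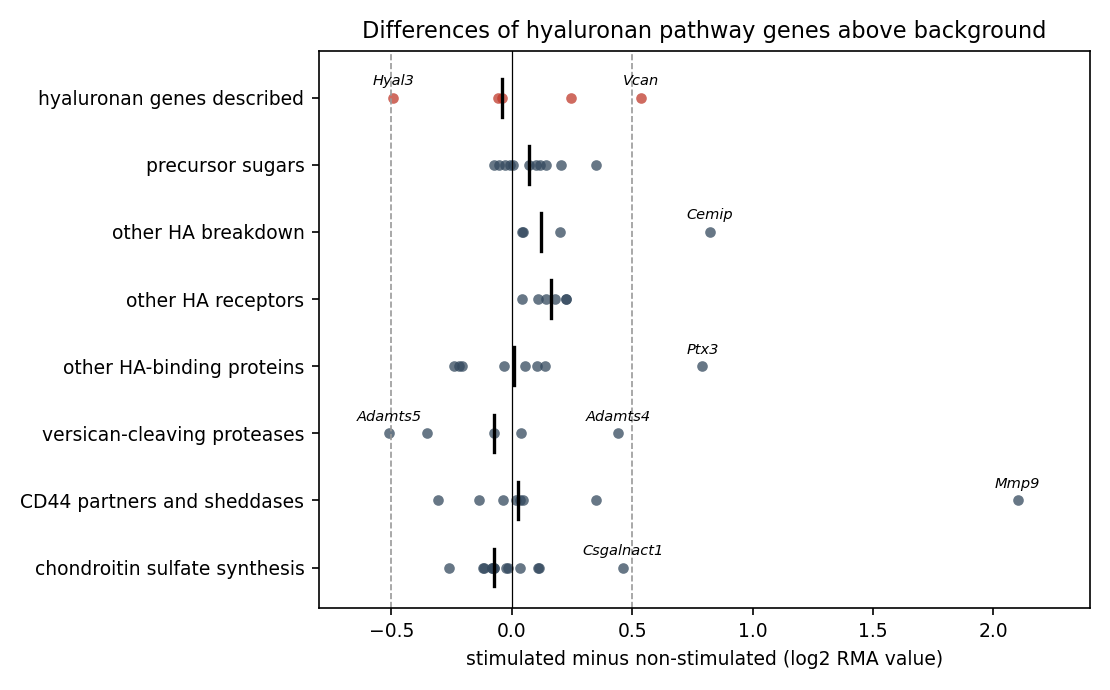
Difference in log2, stimulated minus non-stimulated, of each hyaluronan gene (red, top row) and of related genes grouped by role (dark), for genes above background on at least 1 array; short black bars are medians and dashed lines mark 0.5 in either direction. Cemip at 0.82, Ptx3 at 0.79, Vcan at 0.54 and Mmp9 at 2.10 lie beyond the upper line and Adamts5 at -0.51 beyond the lower.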

How the data were processed

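The values used are the deposited log2 values of 41345 probesets, 1 column per array. Per the submitters' processing notes, the authors used Affymetrix Expression Console and RMA, which corrects background, quantile-normalizes the arrays and summarises probes; no version or build is named for these steps (not given in the sources used here). Sorted values of the arrays differed by at most 0.0757, so an overall shift in RNA cannot be seen and each difference is relative to the other probesets.

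Probesets were named from the platform annotation. Those paired with 1 gene (23521) were used, and 23328 of them matched RefSeq identifiers. The probeset with the highest mean of both arrays stood for a gene. Folds are 2 to the power of the size of a difference, and a value under background was raised to that level for a bound. Computation used Python 3.11.15 with pandas 2.3.3. A check on simulated data covered the calculation only and says nothing about precision with 1 array per condition. Pathway genes were named when their difference reached 0.5, or as the 2 largest of a list. Others are marked as named after their values were seen. The members and lists were chosen with earlier results of these data known. Alternatives were another background percentile, other filters, the mean of a gene's probesets, centring, a lowess trend and raised values. Promoter windows matched 7 of the 9 genes.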

Additional observations from a re-analysis of the deposited data

How the results depend on the processing

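After the median difference of all genes or a lowess trend over expression was subtracted, Vcan stayed between 0.52 and 0.54, Cd44 between 0.23 and 0.24 and Hyal3 between -0.49 and -0.47. The counts at 2-fold and at 0.5 were the same under these settings, with background at percentile 99 and with no filter. The mean of probesets, the filter on both arrays and values raised to background could not change them, since each gene has 1 probeset and the 5 genes compared were above background on both arrays, and they say nothing about stability. The median of the genes compared changed sign with the filter, to 0.10 over 4 genes with background at percentile 99, which leaves out Hyal3, and to 0.04 over all 8 with no filter. No paired analysis was possible because each condition has 1 array, and no replicate could be left out.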

Other observations

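In the promoter windows of other hyaluronan genes, searched in the same way, Tnfaip6 held 1 AP-1 match, 1 STAT match and 1 GC box, and Hyal2 held 1 NF-kB match and 1 GC box. Hyal1 held 2 GC box matches that overlap each other, and Has1 none of the 5 motifs. Of the related genes with the largest differences beside Mmp9, Cemip held 1 TATAAA box and 2 GC boxes, and Ptx3 none of the 5.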
